A study of Homo sapiens with 38 samples.

Results

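Cytosolic ribosomal protein genes were followed in human embryonic stem cells as they left the naive state. Members were chosen by symbol, with earlier results of these data known. They were the numbered RPL and RPS genes, RPLP0, RPLP1, RPLP2 and RPSA, without S6 kinases and pseudogenes. The rule took 83 of the 57133 genes in the table, 31 of the small and 52 of the large subunit, and all 83 passed the filter on low counts that left 16674 genes tested. Every library came from Shef6, 1 human embryonic stem cell line, which the study had adapted to growth without feeder cells on plates coated with diluted foetal bovine serum. PXGL, with LIF and inhibitors of MEK, tankyrase and PKC, kept the cells naive. In the first experiment (Ex1) naive cells were sampled on serum coating and on Geltrex, a basement membrane extract, and cells were differentiated on Geltrex in 3 media. N2B27, a basal medium with the N2 and B27 supplements, and the commercial medium E8 were sampled on days 2, 3, 4, 6 and 8. The commercial medium mTeSR was sampled on days 4, 6 and 8. E8 and mTeSR are described by the study as containing FGF and Activin A, and cells for N2B27 were first seeded with a ROCK inhibitor. The second experiment (Ex2) held naive cells on Geltrex and cells at day 4 in N2B27, in N2B27 with the tankyrase inhibitor XAV, and in FAX, which is FGF2, Activin A and XAV. Each of the 19 groups had 2 libraries, which the study calls technical replicates in some places and biological in another, so p-values measured only the spread between these libraries, which may be technical. The naive cells of Ex2 are dated d0 in their titles and d4 in their library names, and the titles were followed. All groups shared this line and its serum-adapted culture.

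A ribosome is made of a small subunit, which reads the mRNA, and a large subunit, which joins amino acids, and each holds ribosomal RNA and many different proteins in single copy. The genes of these proteins are spread over the genome, are transcribed at high levels in dividing cells and are kept in balance with one another, since a protein that is not built into a subunit is degraded. Their mRNAs belong to the TOP class, which starts with a C and a run of pyrimidines, and through this start their translation is controlled by mTOR and LARP1. Pluripotent stem cells divide fast and need a constant supply of new ribosomes.

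The starts of the genes that carry the results are shown because the TOP tract is the feature most of the members share. Each window holds 10 bases before and 20 bases from the annotated start, taken from RefSeq (GRCh38.p14), with the tract in capitals where a C at the start was followed by at least 4 bases that were each C or T. The search was on the transcript strand only.
RPS24, chr10:78033853-78033882, plus strand: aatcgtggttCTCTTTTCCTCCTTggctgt
RPL26, chr17:8383174-8383203, minus strand: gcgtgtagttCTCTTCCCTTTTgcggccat
RPLP2, chr11:809957-809986, plus strand: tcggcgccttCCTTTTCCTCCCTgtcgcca
RPS6, chr9:19380217-19380246, minus strand: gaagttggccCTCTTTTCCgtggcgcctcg
RPL29, chr3:51995876-51995905, minus strand: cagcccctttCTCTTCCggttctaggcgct
RPL22, chr1:6199576-6199605, minus strand: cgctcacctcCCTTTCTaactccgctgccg
RPL22L1, chr3:170870176-170870205, minus strand: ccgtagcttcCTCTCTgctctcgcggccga
RPL12, chr9:127451387-127451416, minus strand: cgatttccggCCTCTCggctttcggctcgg
RPS25, chr11:119018324-119018353, minus strand: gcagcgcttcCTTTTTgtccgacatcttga
RPS28, chr19:8321486-8321515, plus strand: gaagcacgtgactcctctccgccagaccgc
RPL26L1, chr5:172958719-172958748, plus strand: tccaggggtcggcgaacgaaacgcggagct
RPL7L1, chr6:42879606-42879635, plus strand: gtgcggcgccgtagctaggagcggacgcca
RPL10L, chr14:46651762-46651791, minus strand: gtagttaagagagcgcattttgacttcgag
The first 9 windows held the tract, while RPS28 and the paralogs RPL26L1, RPL7L1 and RPL10L held no such run at this position. Only the annotated base was searched, so that a run beginning next to it, as in the RPS28 window, was not counted. Of the 66 members with an entry in the promoter table, 47 (71.2%) had a tract at a start, against 1404 of all 27305 genes in it (5.14%), and the other 17 members had no entry. The longest tracts were in RPL39 with 19 bases and RPL7A with 16. By the GENCODE v44 annotation the 83 genes lay on 21 chromosomes, with 12 of them on chromosome 19.

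Library totals ran from 3038046 to 5612354 counts with a median of 4427277, and the labelled states were checked against marker genes. Summed CPM of 6 naive markers (KLF17, DPPA5, SUSD2, DNMT3L, KLF4 and TFCP2L1) lay between 1101 and 1473 in the naive libraries and between 385 and 429.7 in N2B27 at day 8, while 5 primed or formative markers (ZIC2, SALL2, CDH2, THY1 and SFRP2) lay between 19.1 and 23.9 and between 503 and 577. Markers of other cell types moved with medium and day, and their part in the results was not tested. The 6 fibroblast markers summed to between 1.97 and 4.28 CPM in naive cells, 168 and 183 CPM in N2B27, 101 and 103 CPM in E8 and 134 and 152 CPM in mTeSR at day 8, mostly COL1A1 and COL1A2, while LUM and DCN were too low to be tested. At day 2 they summed to between 39.9 and 47.7 CPM in N2B27 and 17.8 and 26.0 CPM in E8. The 5 trophectoderm markers lay between 4.39 and 7.73 CPM in naive cells and at day 8 between 58.5 and 68 CPM in N2B27, 13.3 and 16.7 CPM in E8 and 9.62 and 10.1 CPM in mTeSR, with KRT7 and VGLL1 too low to be tested. The 4 hypoblast markers lay between 7.71 and 12.9 CPM in naive cells and at day 8 between 103.5 and 106.5 CPM in N2B27, 13.2 and 16.6 CPM in E8 and 55.7 and 57.4 CPM in mTeSR. Neither of the last 2 lists exceeded 10 CPM at day 2 of N2B27 or E8, and 4 amnion markers stayed between 5.42 and 21.4 CPM in naive cells and at day 8. Levels are given as TMM-scaled CPM. The protocol counts 1 tag near the 3′ end of each transcript, so that values were not divided by length.

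Of the 83 members 50 had a mean above 1000 CPM and 9 one below 300 CPM. RPS24, a small subunit protein needed for processing of the ribosomal RNA precursor, had the highest mean at 3564 CPM. It was followed by RPL37A at 3065, RPS27A at 2921, RPL13A at 2732 and RPL27A at 2611 CPM. RPS27A is made as a fusion with ubiquitin. Outside the 6 paralogs RPL3L, RPL7L1, RPL10L, RPL22L1, RPL26L1 and RPL39L, the coefficient of variation over the 38 libraries had a median of 16% among 77 members and reached 33.7% for RPL29. Only 6 of these 77 exceeded 25%. E8 at day 2 was the group with the highest mean for 41 members and naive cells of Ex2 for 33, and N2B27 of Ex1 at day 4 was the group with the lowest mean for 27 and N2B27 at day 3 for 22.

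Together the 83 genes took between 8.06% and 12.3% of a library's counts, and the share moved with medium and day. Naive cells of Ex1 gave 9.1% and 9.64% on serum coating and 10.5% and 10.5% on Geltrex, and those of Ex2 12.3% and 12.2%. In N2B27 the share was 9.26% and 9.43% at day 2, 8.06% and 8.88% at day 3, 8.62% and 8.42% at day 4 and 9.94% and 10.2% at day 8. In E8 it was 11.7% and 11.8% at day 2 and 10.2% and 10.4% at day 3, so that libraries of E8 lay above those of N2B27 on both days without overlap. The library with the fewest counts was a naive library of Ex2, and the libraries of E8 at day 2 held 3143033 and 3385716 counts. Naive cells of Ex2, with 3038046 and 3642536 counts, had the 12.3% and 12.2% given above. N2B27 of Ex1 at day 4, with 5612354 and 5353780 counts, had 8.62% and 8.42%. For mTeSR at day 8, with 3677825 and 3534869 counts, the shares were 10.8% and 10.3%. At day 8 of E8 replicate 1, with 5350385 counts, had a share of 11.9% and replicate 2, with 4240390 counts, one of 10.6%. The part of depth in the shares was not tested. The small subunit's counts were between 0.716 and 0.798 of the large subunit's in every library.

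**Figure D1:**
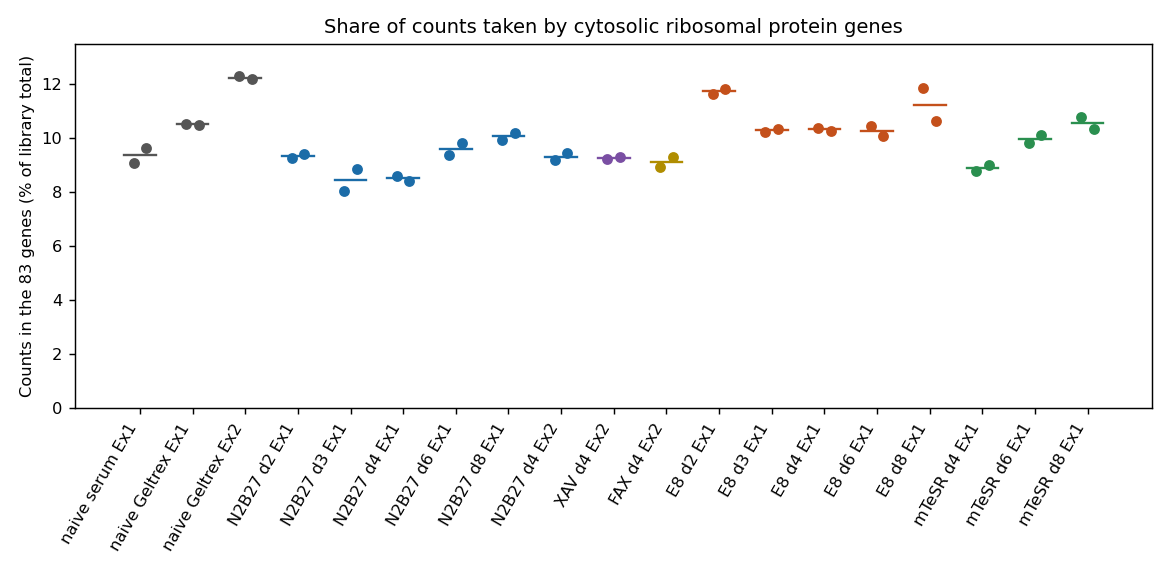
Share of each library's counts in the 83 ribosomal protein genes (y axis, percent of library total), by medium, day and experiment (x axis); points are the 2 libraries of a group and lines their mean. By group mean, naive cells of Ex2 and E8 at day 2 sit highest and N2B27 of Ex1 at days 3 and 4 lowest.

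The first comparison asked how E8 differed from N2B27 alone on the same day. At day 2 most ribosomal protein genes were higher in E8: 54 of 83 passed the test (edgeR quasi-likelihood, Benjamini-Hochberg adjusted p under 0.05 over all genes tested), beside 7.03% of all tested genes that were called higher. They were 21 of the 31 small and 33 of the 52 large subunit genes, and the median log2 fold change was 0.42 over the members and -0.03 over all genes. No member was called lower, at unadjusted p under 0.05 it was 1, and DESeq2 called 61 higher and 0 lower. Without replicate 1 of N2B27 the count was 31, as it was with only the 4 compared libraries in the fit. Scaling by library totals moved the median of all genes by -0.12 on the log2 scale and left 44 higher and 2 lower. In bulk libraries such as these a change in the mix of cells and a change in RNA per cell cannot be told apart.

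RPS15A, a protein of the small subunit body, showed the largest rise of the named members. It had 563 and 432 CPM in N2B27 and 974 and 974 CPM in E8. The E8 libraries lay close together and both above N2B27, with a log2 fold change of 0.97 ± 0.21 (SE), adjusted p = 0.0019. RPL26, a large subunit protein that also binds the mRNA of p53, had 1271 and 1390.1 CPM in N2B27 and 2238 and 2194 CPM in E8, again without overlap (log2 fold change 0.74 ± 0.13 (SE), adjusted p = 2.79e-04). RPL22L1, the paralog of the large subunit protein RPL22, had 67.2 and 62.6 CPM in N2B27 and 104 and 117 CPM in E8. Its log2 fold change was 0.77 ± 0.17 (SE), adjusted p = 0.00254, and its libraries did not overlap. Of the most abundant members, RPS24 rose from 3149 and 4003 CPM to 5080.4 and 5102 CPM (log2 fold change 0.51 ± 0.09 (SE), adjusted p = 3.24e-04). RPL37A, a zinc-binding protein of the large subunit, had 2674 and 3012 CPM in N2B27 and 4696 and 4449 CPM in E8 (log2 fold change 0.69 ± 0.11 (SE), adjusted p = 7.55e-05). In N2B27 the second library was the higher one for both of these genes.

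RPS6, the substrate of the S6 kinases, was among the members that did not follow. Its libraries had 1269 and 1070.3 CPM in N2B27 and 1244 and 1248 CPM in E8, with overlap, and the log2 fold change was 0.09 ± 0.10 (SE), adjusted p = 0.621. The 47 members with the tract at an annotated start had a median log2 fold change of 0.42. The 19 in the promoter table without it at that base, which can still be TOP mRNAs, had 0.33.

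The median difference was lower on the following days than on day 2. At day 3, 33 members were higher in E8 (2.96% of all genes), with a median of 0.29, and at day 4, 38 (3.74% of all genes), with a median of 0.30. At day 6 the count was 11 (7.67% of all genes) and the median 0.16, and at day 8 it was 31 (9.57% of all genes) and 0.25. Over the 5 days 59 of 83 members had a positive log2 fold change on every day, and the share of all genes that did was not computed. No member was called lower on any of these days by edgeR or DESeq2, and at unadjusted p under 0.05 there were 2 at day 3, 0 at days 4 and 6, and 1 at day 8. With edgeR 1 was lower at day 3 without replicate 2 of E8 or of N2B27, and 1 at day 8 without replicate 1 of E8. The counts leaned on single libraries. At day 3, 2 members were left without replicate 1 of N2B27 and 14 without replicate 1 of E8. At day 4 it was 12 and 21 without replicates 1 and 2 of E8, and 18 and 10 without those of N2B27. At day 6 it was 2 and 6 without those of E8, and 2 and 4 without those of N2B27. At day 8 it was 7 without replicate 1 of E8, and 11 and 17 without replicates 1 and 2 of N2B27. With only the 4 compared libraries in each fit, 0, 71, 34 and 4 members were higher at days 3, 4, 6 and 8, and 2 lower at day 6.

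**Figure D2:**
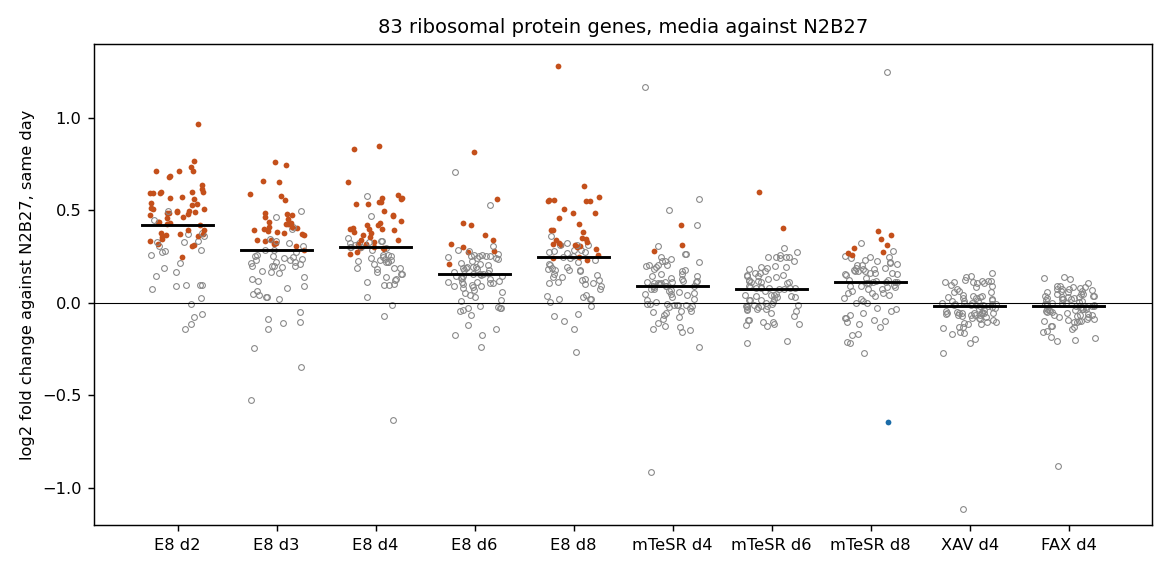
Log2 fold change of each of the 83 genes against N2B27 of the same day and experiment (y axis), by medium and day (x axis); filled points passed the test (orange higher, blue lower), open points did not, and black lines are medians. RPL10L at E8 day 2 (-1.44) and RPL3L at E8 day 8 (2.10) lie outside the axis; the medians fall from 0.42 at day 2 of E8 to 0.16 at day 6.

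Only 3 members were called on each of the 5 days, RPL17, RPL22 and RPS24, of which RPL17 was picked out after its values were seen. Neither this count nor that of members called on no day was made over all genes. RPL17, which lies near the exit of the peptide tunnel, had 559 and 505 CPM in N2B27 and 835 and 841 CPM in E8 at day 4, and 658 and 687 CPM and 1128 and 844 CPM at day 8. The libraries of E8 were above those of N2B27 at both days. RPL22, which also binds small viral and cellular RNAs, had 887 and 953 CPM in N2B27 and 1187 and 1160.4 CPM in E8 at day 8 (log2 fold change 0.35 ± 0.08 (SE), adjusted p = 0.00108). At the other end 12 members were called on no day, and among these were RPL3L, RPL6, RPL26L1, RPL28, RPL31, RPL36, RPL39L, RPS6 and RPS29, written out after their values were seen. RPL39L, a paralog of RPL39 known from testis, had 78 and 93 CPM in N2B27 and 108 and 87.8 CPM in E8 at day 8, and these libraries overlapped.

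At day 8 the named rises rested in part on 1 library of E8. RPS15A had 781 and 725 CPM in N2B27 and 1520.4 and 814 CPM in E8, so that replicate 1 stood far above replicate 2 (log2 fold change 0.63 ± 0.20 (SE), adjusted p = 0.025). Without replicate 1 of E8 its value was 0.10 with an adjusted p of 0.833. It was 0.69 and 0.59 without replicates 1 and 2 of N2B27, with adjusted p of 0.0892 and 0.137. RPS20, a protein of the small subunit head, showed the same split, with 979 and 956 CPM in N2B27 and 1803 and 1042 CPM in E8. Its log2 fold change was 0.56 ± 0.13 (SE), adjusted p = 0.00241, and 0.09 with an adjusted p of 0.672 without replicate 1 of E8. RPL23A, at the tunnel exit where the signal recognition particle docks, had 594 and 815 CPM in N2B27 and 1067 and 1026 CPM in E8 (log2 fold change 0.57 ± 0.18 (SE), adjusted p = 0.0249). Its E8 libraries lay close together, but the call was lost without replicate 1 of E8 (0.53, adjusted p = 0.138) and without replicate 1 of N2B27 (0.36, adjusted p = 0.345). By DESeq2 the adjusted p was 0.0525 for RPS15A and 0.0574 for RPL23A, and with only the compared libraries in edgeR it was 0.127 for RPS15A and 0.136 for RPS20. With library totals that of RPL23A was 0.0608.

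The difference between E8 and N2B27 itself changed between day 2 and day 8 for 14 members by the interaction term, downwards for 11 and upwards for 3, beside 9.56% of all genes called in either direction. The 11 were 5 and 3 without replicates 1 and 2 of E8 at day 2, 18 and 4 without those of E8 at day 8, 1 and 17 without those of N2B27 at day 2, and 3 and 5 without those of N2B27 at day 8. The 3 were 0 without replicate 2 of E8 at day 2, and 1 without replicate 1 of N2B27 at day 2 and without either library of N2B27 at day 8. Both counts were 0 with only the compared libraries. Within E8 the fall came early: from day 2 to day 3, 40 members fell and 2 rose, beside 9.79% of all genes called lower and 11.6% higher (21.4% in either direction), with a median log2 change of -0.29. The 40 were 23 without replicate 2 of E8 at day 2 and 22 without replicate 2 of E8 at day 3, and the 2 that rose were 0 without either of these. The 40 were 14, and the 2 were 0, with only the compared libraries. With library totals in place of TMM the median of all genes moved by 0.12 and 26 fell and 4 rose. From day 2 to day 8 of E8, 35 fell and 9 rose, beside 23.5% of all genes called lower and 26.8% higher (50.3% in either direction). With library totals 22 fell and 18 rose, the median of the members was -0.01 in place of -0.16, and the median of all genes moved by 0.15. The 35 were 23 without replicate 2 at day 8, and the 9 were 5 without replicate 2 at day 2, 5 without replicate 1 at day 8 and 15 without replicate 2 at day 8.

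In N2B27 and mTeSR the courses ran upwards from day 4 to day 8. E8 also moved up late, with a median log2 change of -0.001 from day 4 to 6 and 0.15 from day 6 to 8. From day 2 to day 8 the median in N2B27 was -0.03. In N2B27 22 members rose and 2 fell from day 4 to day 8 of Ex1, beside 11.3% of all genes called higher (20.3% in either direction), with a median of 0.21. In mTeSR 28 rose and 1 fell over the same days, beside 12.7% of all genes called higher (23.1% in either direction), with a median of 0.22. The count of rises in N2B27 was 44 with only the compared libraries. The 22 were 9 and 2 without replicates 1 and 2 of N2B27 at day 4, and 8 and 7 without those at day 8, and the 2 that fell were 0 without any 1 of these 4 libraries. The 28 were 7 without replicate 1 of mTeSR at day 4 and 11 without replicate 1 at day 8, and the 1 that fell was 0 without either of these or replicate 2 at day 8.

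Against N2B27, mTeSR showed few changed members. At day 4, 3 were higher (4.73% of all genes called in either direction), at day 6, 2 (9.06%), and at day 8, 8 were higher and 1 lower (5.68% of all genes called higher and 10.9% in either direction). The medians were 0.09, 0.07 and 0.11. DESeq2 called 3 higher at day 4, 5 at day 6 and 9 at day 8, and with only the compared libraries edgeR called 7, 16 and 13. Among those higher at day 8, RPL23, a large subunit protein that can bind MDM2, had 1253 and 1456 CPM in N2B27 and 1766 and 1785 CPM in mTeSR (log2 fold change 0.39 ± 0.09 (SE), adjusted p = 0.00366). RPL8, near the site of peptide bond formation, had 1254 and 1123 CPM and 1540.4 and 1478 CPM (log2 fold change 0.34 ± 0.10 (SE), adjusted p = 0.024). The member that fell was RPL22L1, with 89.4 and 81.3 CPM in N2B27 and 61.1 and 48.1 CPM in mTeSR (log2 fold change -0.64 ± 0.17 (SE), adjusted p = 0.0122).

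These libraries did not overlap for the 3 named genes, but the counts were small and depended on each library. The 8 at day 8 were 2 without either replicate of mTeSR, 0 without replicate 1 and 2 without replicate 2 of N2B27. The call of RPL23 was lost without replicate 1 of N2B27 (0.28, adjusted p = 0.139), that of RPL22L1 without replicate 2 of mTeSR (-0.48, adjusted p = 0.227) or replicate 1 of N2B27 (-0.58, adjusted p = 0.0995), and that of RPL8 without any 1 of the 4 libraries. The 3 at day 4 were 1 without either replicate of mTeSR and 0 without either of N2B27. The 2 at day 6 were 1 without either replicate of mTeSR, 1 without replicate 1 and 0 without replicate 2 of N2B27. Against E8 at day 8, 14 members were lower in mTeSR and 1 higher (6.82% of all genes called lower and 14.1% in either direction), with a median of -0.13. The 14 were 0 without replicate 1 of E8, 28 without replicate 2 of E8 and 1 without replicate 2 of mTeSR, and the 1 higher was 0 without any 1 of the 4. Both were 0 with only the compared libraries.

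Neither XAV nor FAX had a member called in the fit of all groups. Against N2B27 at day 4 of Ex2, edgeR called 0 of 83 members with XAV (1.34% of all genes called) and 0 with FAX (0.846%). At unadjusted p under 0.05 it was 1 in each, and DESeq2 called 0 in both, while with only the compared libraries 5 were lower with XAV and 3 in FAX. The medians over the members were -0.02 with XAV and -0.01 with FAX. RPS24 had 3350.3 and 3413 CPM in N2B27, 3439 and 3371 CPM with XAV and 3233 and 3576 CPM in FAX. RPL26 had 1583 and 1566 CPM in N2B27, 1687 and 1703 CPM with XAV and 1576 and 1719.8 CPM in FAX. The log2 fold changes of these genes were 0.01 ± 0.09 (SE) and 0.11 ± 0.13 (SE) with XAV and 0.01 ± 0.09 (SE) and 0.07 ± 0.13 (SE) in FAX.

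Each condition was then compared with the naive state, which the study formed from all 6 naive libraries of both coatings and both experiments. The naive libraries were not alike in these genes. In Ex1, Geltrex was above serum coating by a median of 0.22 on the log2 scale, with 3 members called higher (0.174% of all genes called): RPL26, RPL12 and RPL5. RPL26 had 1170.0 and 1590.4 CPM on serum coating and 2029 and 2245 CPM on Geltrex (log2 fold change 0.63 ± 0.13 (SE), adjusted p = 0.032). RPL12, at the base of the stalk, had 667 and 754 CPM on serum coating and 965 and 983 CPM on Geltrex (log2 fold change 0.45 ± 0.09 (SE), adjusted p = 0.032). DESeq2 called 15, and the 3 were 0 without either Geltrex library or replicate 1 on serum coating and 12 without replicate 2 on serum coating. On Geltrex, Ex2 was above Ex1 by a median of 0.25, with 26 members higher and 1 lower (7.35% of all genes called higher and 15.2% in either direction). The 26 were 13 and 3 without replicates 1 and 2 of Ex1 and 4 and 10 without those of Ex2, and the 1 was 0 without replicate 2 of Ex1 or either of Ex2. N2B27 at day 4 differed by a median of 0.19 between Ex2 and Ex1, with 1 member higher (3.87% of all genes called). DESeq2 called 7 there, and the 1 was 0 without any 1 of the 4 libraries. Fitted with only the compared libraries, the 3 of the coatings were 0, the 26 of the naive cells 45 and the 1 of day 4 44.

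Against the 6 naive libraries ribosomal protein genes were lower at day 4 of N2B27, and at day 8 the share called lower was near that of all genes. At day 2, 23 members fell, which was 27.7% of them, beside 16.4% of all genes called lower (35.3% in either direction), with a median of -0.18. At day 4, over both experiments, 56 fell, or 67.5%, and 1 rose, beside 3331 of all 16674 genes called lower (42.4% in either direction), with a median of -0.28 and -0.01 over all genes. They were 21 of 31 small and 35 of 52 large subunit genes. At day 8, 18 fell, or 21.7%, beside 20.4% of all genes called lower (45.1% in either direction), with a median of -0.16. At unadjusted p under 0.05, 4 members were higher at day 2 and 0 at day 8, and DESeq2 called 1 and 0. The 23 were 12 and 8 without replicates 1 and 2 of N2B27 at day 2, the 56 were 35 without replicate 1 of N2B27 of Ex1 and 35 without replicate 2 of naive cells of Ex2, and the 18 were 8 and 9 without replicates 1 and 2 of N2B27 at day 8. No member rose at day 2, and that count was 6 without replicate 1 of N2B27, 4 and 2 without replicates 1 and 2 of naive cells of Ex2 and 3 without replicate 1 on serum coating. With the experiment as a covariate 8 members rose at day 2, and against the naive cells of Ex1 alone 9. Against the serum-coated libraries alone 21 fell at day 4 and 2 at day 2, and at day 8, 11 rose and 8 fell with a median of 0.04. With only the compared libraries 3, 29 and 4 fell at days 2, 4 and 8. The 47 members with the tract at an annotated start had a median of -0.28 at day 4 and the 19 without it at that base -0.27.

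RPL12 had the largest fall of the named members with at least 20 CPM at day 4 in N2B27. In naive cells it had 667 and 754 CPM on serum coating, 965 and 983 CPM on Geltrex in Ex1 and 1254 and 1199 CPM in Ex2. In N2B27 at day 4 it had 656 and 649.7 CPM in Ex1 and 595 and 602 CPM in Ex2, all below the naive libraries (log2 fold change -0.63 ± 0.11 (SE), adjusted p = 1.82e-05). Against serum-coated cells alone it was -0.12 with an adjusted p of 0.331. RPS28, which contacts the mRNA at its exit, had 2501, 2322, 2434, 2055, 2846 and 2708 CPM in the naive libraries and 1651, 1768, 1771 and 1823 CPM at day 4 (log2 fold change -0.50 ± 0.08 (SE), adjusted p = 6.12e-06). The groups did not overlap. RPL28, of the large subunit, had 190.4, 136, 145, 117, 137 and 122 CPM in the naive libraries and 90.8, 115, 102 and 101 CPM at day 4, also without overlap (log2 fold change -0.46 ± 0.11 (SE), adjusted p = 0.00127). It was -0.35 with an adjusted p of 0.0914 against the naive libraries of Ex2 alone, and -0.34 with an adjusted p of 0.102 against those on Geltrex of Ex1.

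At day 2 in N2B27 the named falls with at least 20 CPM and no overlap were RPL5, RPS6 and RPS25. The paralogs RPL3L, described below, and RPL26L1 were also called lower. For RPL26L1 the log2 fold change ran from -0.80 to -0.15 over 21 settings, and the call was lost in 5. RPL5, which with RPL11 and the 5S RNA forms the particle that can bind MDM2, had 1269.6, 1552, 1901, 2079.8, 2049 and 2056 CPM in the naive libraries and 1242 and 1182 CPM at day 2 (log2 fold change -0.58 ± 0.13 (SE), adjusted p = 5.61e-04). The naive library nearest to it was on serum coating, and against that coating alone the value was -0.22 with an adjusted p of 0.0998. RPS6 had 1373, 1517, 1811, 1791, 1861 and 1746 CPM in the naive libraries and 1269 and 1070.3 CPM at day 2 (log2 fold change -0.52 ± 0.11 (SE), adjusted p = 2.58e-04). RPS25, a small subunit protein used by some viral internal ribosome entry sites, had 748, 825, 915, 970.4, 1130.3 and 1208 CPM in the naive libraries, 706 and 684 CPM at day 2 and 717 and 726 CPM at day 8. None of these 4 libraries reached the naive range. Its log2 fold change was -0.47 ± 0.12 (SE), adjusted p = 0.00267 at day 2 and -0.42 ± 0.12 (SE), adjusted p = 0.00464 at day 8. The first was -0.45 with an adjusted p of 0.052 without replicate 2 of N2B27, the second -0.41 with an adjusted p of 0.0516 without replicate 1, and against serum-coated cells alone they were -0.18 and -0.12 with adjusted p of 0.158 and 0.279. With only the compared libraries its adjusted p was 0.0777 at day 2 and 0.0956 at day 8.

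At day 2 of E8, 40 members rose against the 6 naive libraries as 1 group and 6 fell. These were 48.2% and 7.23% of the members, beside 24.2% of all genes called higher (47.2% in either direction), with a median of 0.23 and 0.00 over all genes. The naive libraries of Ex2 taken alone held a larger share of counts in the members than E8 at day 2, as given above. The 40 were 25 without replicate 2 of E8, and the 6 were 3 and 2 without replicates 1 and 2 of E8 and 3 without replicate 2 of naive cells on Geltrex in either experiment. Scaling by library totals moved the median of all genes by -0.14, leaving 27 that rose and 13 that fell. RPL10, which joins the large subunit last and is X-linked, had 498, 428, 410.5, 399, 521 and 506 CPM in the naive libraries and 871 and 929 CPM in E8 (log2 fold change 0.97 ± 0.13 (SE), adjusted p = 4.44e-07). Both E8 libraries were well above every naive one. RPL29, a small protein of the large subunit, had 275, 209.8, 212, 175, 285 and 264 CPM in the naive libraries and 435 and 481 CPM in E8 (log2 fold change 0.96 ± 0.21 (SE), adjusted p = 2.91e-04). RPS3, at the channel where mRNA enters, had 1946, 1737, 1987, 1748, 2192 and 2234 CPM in the naive libraries and 3824 and 3819 CPM in E8 (log2 fold change 0.95 ± 0.12 (SE), adjusted p = 1.42e-07). RPS6 fell here too, to 1244 and 1248 CPM (log2 fold change -0.43 ± 0.11 (SE), adjusted p = 0.00119), and against serum-coated cells alone its value was -0.21 with an adjusted p of 0.0995.

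At day 8 the balance of rises and falls depended on which naive libraries served as reference. Against all 6, E8 had 12 members that rose and 6 that fell (26.8% of all genes called higher, 23.1% lower and 49.9% in all) and mTeSR 12 that fell (20.7% lower and 45.4% in all), so that the members' shares were below these, with medians of 0.06 and -0.08. In mTeSR 2 members were higher at unadjusted p under 0.05 and DESeq2 called 1. Against serum-coated cells alone the counts higher and lower were 11 and 8 in N2B27 (46.9% of all genes called), 47 and 4 in E8 (50.9%) and 30 and 6 in mTeSR (47.6%). Against Geltrex of Ex1 alone they were 0 and 23 in N2B27 (45.2%), 16 and 5 in E8 (48.2%) and 4 and 13 in mTeSR (45.8%). For N2B27 against Geltrex, 1 member was higher at unadjusted p under 0.05. The 12 that rose in E8 were 1 without replicate 1 of E8, 19 without replicate 2, and 19 without replicate 2 of naive cells of Ex2. The 12 that fell in mTeSR were 3 without replicate 2 of mTeSR, while the count that rose there was 1 without replicate 2 on Geltrex in Ex1 and 2 and 3 without replicates 1 and 2 of Ex2. With only the compared libraries 5 rose in E8 and 6 fell in mTeSR. With the experiment as a covariate 24 rose in E8 and 10 in mTeSR.

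**Figure D3:**
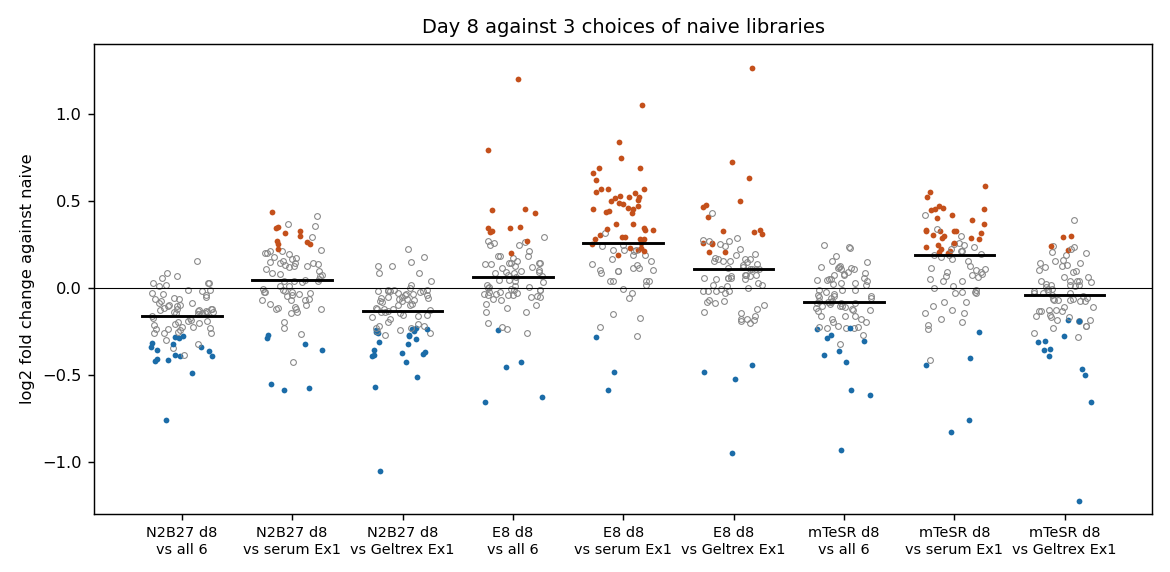
Log2 fold change of each gene at day 8 in N2B27, E8 and mTeSR against naive cells (y axis), with all 6 naive libraries, those on serum coating of Ex1 or those on Geltrex of Ex1 as reference (x axis); filled points passed the test (orange higher, blue lower) and black lines are medians. RPL3L lies below the axis in every column and RPL10L (1.64) above it in E8 against serum coating; each medium shows more higher genes against serum coating.

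Of the named members with at least 20 CPM, RPS15A led the rises of E8 at day 8. It went from 487, 643, 697, 721, 745 and 765 CPM in the naive libraries to 1520.4 and 814 CPM (log2 fold change 0.79 ± 0.17 (SE), adjusted p = 2.20e-04). Without the high replicate 1 of E8 it was 0.25 with an adjusted p of 0.352. RPL23 had 1384, 1451, 1555, 1631, 1801 and 1570.5 CPM in the naive libraries and 2038 and 1941 CPM in E8 (log2 fold change 0.35 ± 0.09 (SE), adjusted p = 0.00237). RPL3, which reaches towards the peptidyl transferase centre, had 909, 944, 1035, 1040.3, 1300.0 and 1269 CPM and 1382 and 1365 CPM (log2 fold change 0.34 ± 0.10 (SE), adjusted p = 0.00486). Without replicate 1 of E8 RPL23 was at 0.29 and RPL3 at 0.32, with adjusted p of 0.0618 and 0.0621, and with only the compared libraries RPL3 had an adjusted p of 0.0677.

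RPS28 and RPL6 went the other way in E8. RPS28 was at 1559 and 1650.3 CPM, below every naive library (log2 fold change -0.63 ± 0.11 (SE), adjusted p = 8.13e-06), although at day 2 of E8 it had 3001 and 2830.4 CPM, the first of these above the highest naive library and the other inside the naive range. RPL6, a large subunit protein, had 1471, 1566, 1809, 1785, 1805 and 1611 CPM in the naive libraries and 1229.7 and 1263 CPM in E8 at day 8 (log2 fold change -0.43 ± 0.08 (SE), adjusted p = 4.31e-05). In mTeSR at day 8 RPL28 was at 98.5 and 85.3 CPM, below its naive range (log2 fold change -0.62 ± 0.15 (SE), adjusted p = 0.00101), and without replicate 2 of mTeSR it was -0.52 with an adjusted p of 0.0527.

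**Figure D4:**
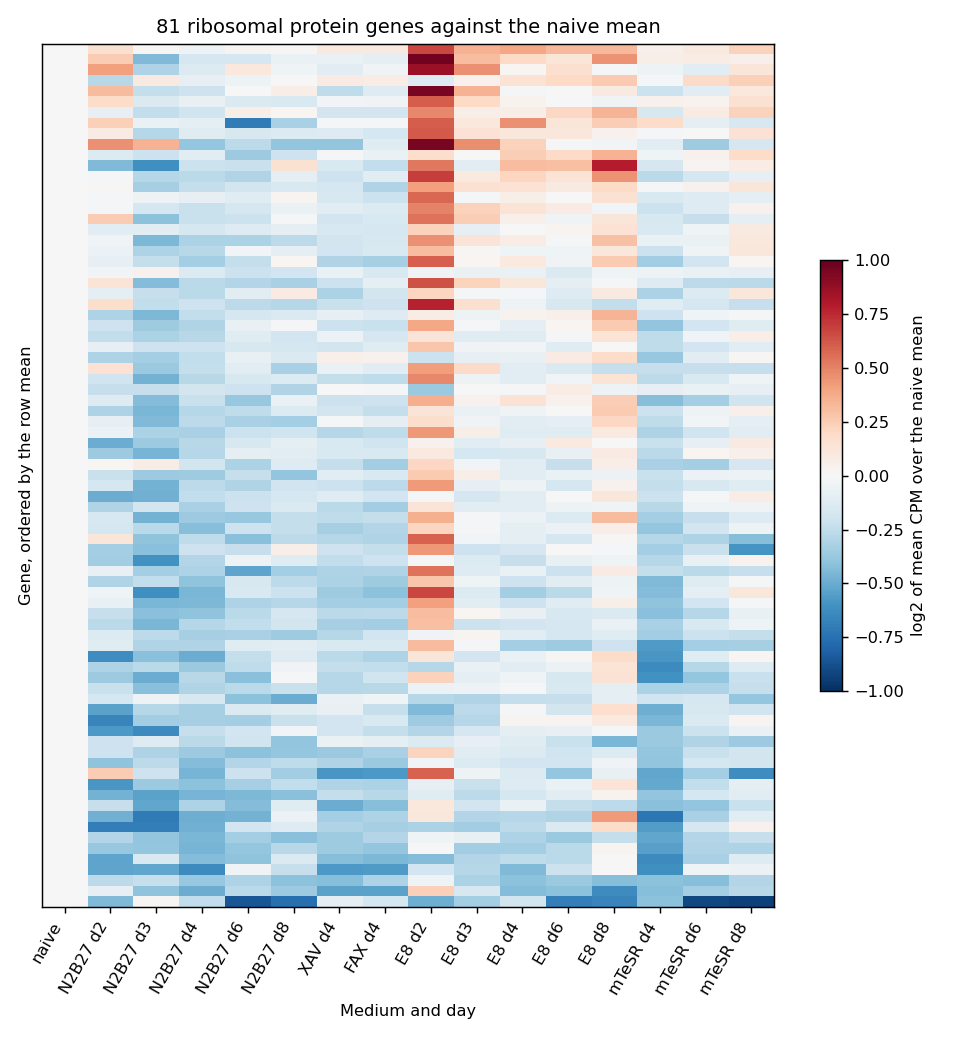
Log2 of the mean CPM over the naive mean (colour, from -1 to 1) for 81 members (rows, ordered by their mean over the columns) in each medium and day (columns); RPL3L and RPL10L are left out for their low counts. At day 2 of E8, 57 of the 81 are above the naive mean, and at day 4 of N2B27 all 81 are below it.

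The paralogs are second copies of a ribosomal protein gene, some of them with limited use among tissues. RPL3L (chr16:1943974-1957606, minus strand by GENCODE v44), which replaces RPL3 in heart and skeletal muscle, was counted at 3.32 and 5.9 CPM in naive cells on serum coating, 6.96 and 5.41 CPM on Geltrex in Ex1 and 4.1 and 9.13 CPM in Ex2. These were 148 counts in 6 libraries. The 32 differentiated libraries held 36 counts together, 10 of them held none, and the groups did not overlap. As a rate per library total, RPL3L was 22.9-fold lower after differentiation (95% exact conditional interval 15.8 to 34.0, which covers counting error only). At day 2 it was already down to 5 counts in N2B27, 10.8-fold lower (4.53 to 33.8), and at day 8 it had 5 counts in E8, 11-fold lower (4.62 to 34.5). The gene passed the filter on low counts only through the naive group, where it is high, so that its fall is a description. It is 1 of the members counted as fallen in each of the 6 comparisons with all naive libraries above, and its call there supports nothing. RPL3 itself rose in E8 at day 8, with the values given above.

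RPL10L (chr14:46651010-46651781, minus strand), an autosomal copy of RPL10 that is used in the testis, was as rare. It had 53 counts in the naive libraries and 84 in the 4 libraries of N2B27 at day 4, 2.14-fold higher per library total (1.5 to 3.08), and it was the member that rose there (1.04 ± 0.27 (SE), adjusted p = 0.00169), although its libraries overlapped with naive ones. In E8 it had 6 counts at day 2 and 47 at day 8, the latter 2.38-fold higher than in naive cells (1.57 to 3.59). The libraries of E8 at day 8 had 5.43 and 4.24 CPM and those of N2B27 2.2 and 1.81 CPM, without overlap (log2 fold change 1.28 ± 0.39 (SE), adjusted p = 0.0178). That call was lost without replicate 1 of E8 (1.06, adjusted p = 0.177) or either replicate of N2B27 (1.42 and 1.14, adjusted p = 0.0666 and 0.135), with DESeq2 (1.28, adjusted p = 0.106), without a filter (1.27, adjusted p = 0.0748) and with only the compared libraries (1.28, adjusted p = 0.0716). At day 4 of N2B27 the call was lost against naive cells of Ex2 (0.72, adjusted p = 0.157) and against Geltrex of Ex1 (0.97, adjusted p = 0.0547), and that of day 8 of E8 against naive without replicate 1 of E8 (0.98, adjusted p = 0.0747). Reads of RPL10 and its many processed copies can be shared with it, so that these low counts are uncertain.

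RPL26L1 (chr5:172958729-172969771, plus strand), a close copy of RPL26, fell in every medium by day 8. It had 56, 69.7, 77, 96.3, 65.2 and 59.2 CPM in the naive libraries, 41.4 and 42.1 CPM in N2B27, 49.5 and 40 CPM in E8 and 39.1 and 35 CPM in mTeSR at day 8. No library of day 8 reached the naive range. The log2 fold changes were -0.76 ± 0.16 (SE), adjusted p = 2.27e-04 in N2B27, -0.66 ± 0.16 (SE), adjusted p = 9.74e-04 in E8 and -0.94 ± 0.17 (SE), adjusted p = 2.74e-05 in mTeSR. In E8 it was -0.50 with an adjusted p of 0.0534 without replicate 2. Its partner RPL26 had log2 fold changes of -0.13 ± 0.17 (SE), 0.18 ± 0.17 (SE) and 0.02 ± 0.17 (SE) in the same media, and none of them passed the test. Against serum-coated naive cells alone they were 0.43 ± 0.13 (SE), 0.75 ± 0.13 (SE) and 0.59 ± 0.13 (SE), with edgeR adjusted p of 0.00562, 1.11e-05 and 3.11e-04, so that the value in N2B27 turned from negative to positive.

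RPL7L1 (chr6:42879616-42889925, plus strand), which works in the nucleolus in ribosome assembly, had 218, 229.9, 251, 268, 248 and 257 CPM in the naive libraries and 172 and 176 CPM in N2B27 at day 8 (log2 fold change -0.49 ± 0.10 (SE), adjusted p = 1.04e-04). In mTeSR it had 202 and 173 CPM (-0.39 ± 0.10 (SE), adjusted p = 0.00171), and -0.28 with an adjusted p of 0.097 without replicate 2. In E8 it was at 198 and 205 CPM at day 2, below the naive range, and at 237 and 222 CPM at day 8, inside the naive range, and above N2B27 of the same day (log2 fold change 0.40 ± 0.11 (SE), adjusted p = 0.00749). That difference from N2B27 was 0.33 with an adjusted p of 0.103 without replicate 1 of E8, 0.38 with an adjusted p of 0.0716 without replicate 1 of N2B27, and 0.39 with an adjusted p of 0.0696 with only the compared libraries. RPL22L1 (chr3:170864875-170870208, minus strand) had 69.1, 79.7, 84.8, 87.7, 78.9 and 92.1 CPM in the naive libraries and 61.1 and 48.1 CPM in mTeSR at day 8 (log2 fold change -0.59 ± 0.15 (SE), adjusted p = 0.00177), which was -0.43 with an adjusted p of 0.0982 without replicate 2. At day 2 of E8 RPL22L1 was called higher than in naive cells. Its log2 fold change there ran from 0.29 to 0.58 over 21 settings, and the call was lost in 4. RPL39L (chr3:187120948-187180908, minus strand) was called against naive cells in none of 6 comparisons (days 2, 4 and 8 of N2B27, days 2 and 8 of E8, and day 8 of mTeSR).

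**Figure D5:**
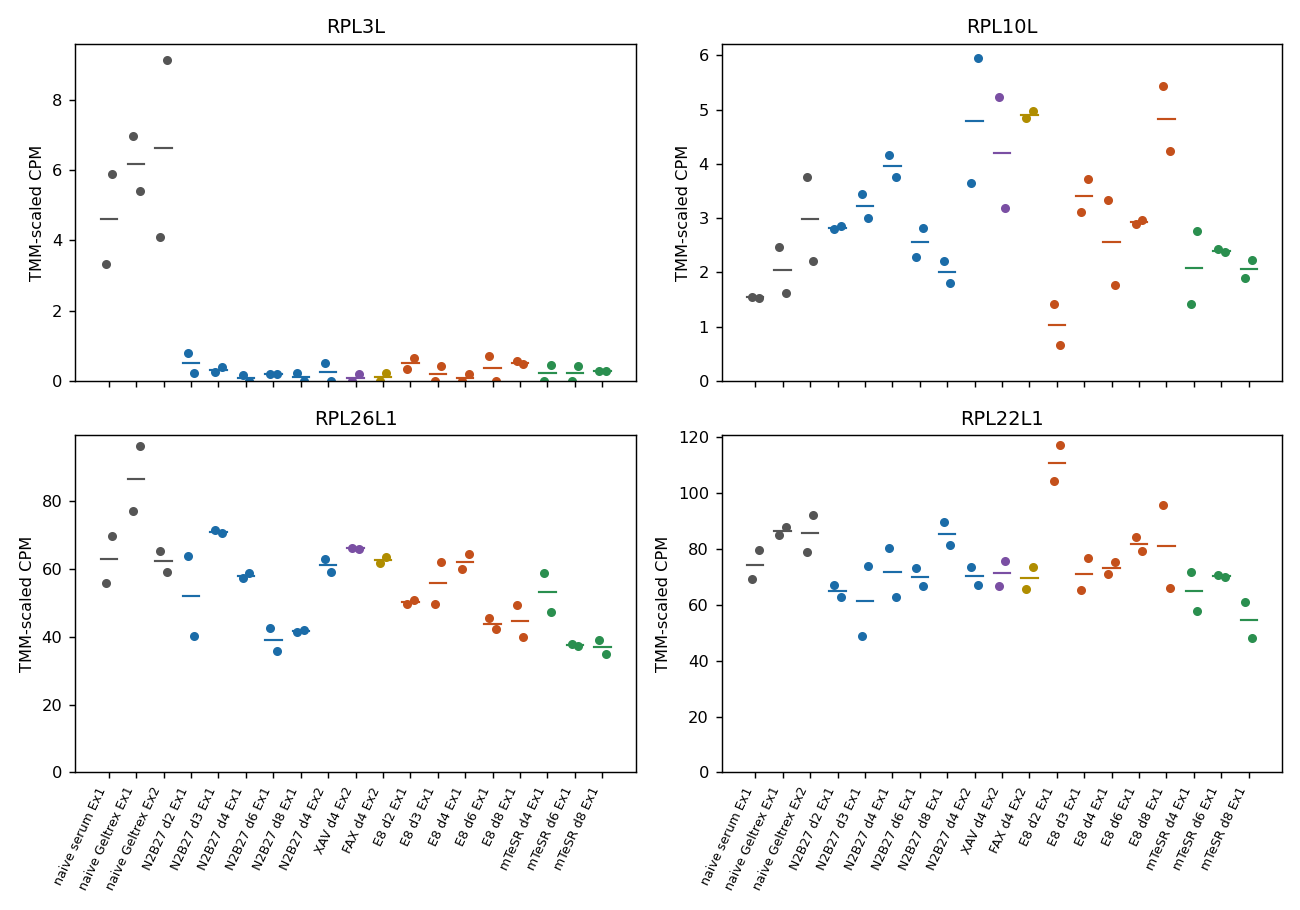
TMM-scaled CPM (y axis, from 0) of RPL3L, RPL10L, RPL26L1 and RPL22L1 by medium, day and experiment (x axis); points are the 2 libraries of a group and lines their mean. RPL3L is above 3 CPM in all 6 naive libraries and below 1 CPM elsewhere.

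Genes of the stalk, of the 5S particle, RPSA and RPS27A were higher at day 2 of E8 than in N2B27. Of the stalk proteins, which call elongation factors to the ribosome, RPLP0 had 1370.1 and 1897 CPM in N2B27 and 2332 and 2388 CPM in E8 (log2 fold change 0.53 ± 0.10 (SE), adjusted p = 6.54e-04). RPLP2 had 1429 and 1788 CPM in N2B27 and 2318 and 2549 CPM in E8 (log2 fold change 0.60 ± 0.11 (SE), adjusted p = 7.47e-04), and RPLP1 a log2 fold change of 0.42 ± 0.09 (SE), adjusted p = 0.00241. For RPLP0 and RPLP2 the libraries of E8 were above those of N2B27. Of the 5S particle genes, RPL5 had a log2 fold change of 0.50 ± 0.10 (SE), adjusted p = 9.32e-04. RPL11 had 0.37 ± 0.08 (SE), adjusted p = 0.00346. RPSA, which is also a laminin receptor, had 0.25 ± 0.08 (SE), adjusted p = 0.044, and RPS27A 0.54 ± 0.10 (SE), adjusted p = 6.28e-04.

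Other genes of ribosome production and translation did not all share this pattern. Against N2B27 at day 2 of E8, 7.03% of all genes were called higher and 6.64% lower. In that comparison 3 of 5 ribosomal proteins outside the symbol rule were higher, among them RACK1, a scaffold on the small subunit (0.65 ± 0.09 (SE), adjusted p = 1.91e-05), and FAU (0.52 ± 0.11 (SE), adjusted p = 0.00143), beside a median of 0.51. Of 18 translation factors with TOP mRNAs, 9 were higher, led by TPT1 (0.69 ± 0.09 (SE), adjusted p = 5.43e-06) and the elongation factor EEF1A1 (0.64 ± 0.11 (SE), adjusted p = 2.85e-04). Of 42 nucleolar ribosome biogenesis factors 4 were lower, a share near that of all genes called lower, with TSR1 (-0.75 ± 0.16 (SE), adjusted p = 0.00167) the largest fall, and the list's median was -0.13. Of 12 RNA polymerase I genes 1 was higher and 2 lower, of 11 snoRNA host genes 1 was lower, of 13 regulators of ribosomal protein synthesis 1 was higher and 1 lower, and of 78 mitochondrial ribosomal protein genes 2 were higher and 10 lower. At day 8, when 9.57% of all genes were called higher and 9.69% lower, the nucleolar list had 10 higher genes in E8, among them BOP1 (0.66 ± 0.13 (SE), adjusted p = 5.59e-04), and the mitochondrial one 14 higher and 1 lower.

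Against naive cells many genes of these lists were lower. In N2B27 at day 8, 20.4% of all genes were called lower and 24.7% higher, and 26 of 42 nucleolar factors were lower, with SBDS, which prepares the large subunit for use, at -1.01 ± 0.18 (SE), adjusted p = 2.79e-05. So were 53 of 78 mitochondrial ribosomal protein genes (1 higher), 6 of 12 RNA polymerase I genes and 8 of 13 regulators (1 higher), while 18 of 83 members were. The medians were -0.39, -0.50, -0.43 and -0.45, against -0.16 for the members and -0.03 for all genes. The regulator that rose was MYC, a transcription factor of growth genes, from 1.78 ± 1.23 CPM (SD, n = 6) to 25.7 ± 5.52 CPM (SD, n = 2), a log2 fold change of 3.75 ± 0.27 (SE), adjusted p = 1.20e-13 by edgeR. MTOR, the kinase that controls TOP mRNAs, was lower at -0.95 ± 0.14 (SE), adjusted p = 1.72e-06. Translation factors with TOP mRNAs had 3 of 18 lower and snoRNA host genes 3 of 11.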

How the data were processed

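RNA of 38 libraries was sequenced as 3′ tags (QuantSeq). The authors processed the reads with the nf-core rnaseq workflow on hg38 (FastQC 0.11.9, Salmon 1.9.0, STAR 2.7.10a, as in their processing notes) and deposited whole-number gene counts without normalization. Members were taken by symbol, and the members and the gene lists were chosen with earlier results of these data known. Counts were tested in edgeR 4.0.16 (limma 3.58.1, R 4.3.3): TMM scaling, filterByExpr, glmQLFit and a quasi-likelihood F-test with Benjamini-Hochberg adjustment over 16674 genes at 0.05. Comparisons with naive cells used 1 fit of 16 levels of medium and day with all naive libraries and both sets of N2B27 at day 4 pooled, and all others a fit of 19 groups. DESeq2 1.42.0, other scalings and filters, a replicate block, an experiment covariate, other naive references and each library left out were alternatives, and naive serum-coated or Geltrex cells of Ex1 alone were added after seeing the data. Named members were the paralogs and their partners, RPLP0, RPLP1, RPLP2, RPSA, RPL5, RPL11 and RPS27A, the 5 most abundant, and up to 3 members per direction and main comparison with the largest called change, at least 20 CPM and no overlap. Some values that this rule gives are not reported here. Other lists were named up to 2 genes per direction by the same limits. Read depth (totals in the report) limits the paralogs with few counts. The edgeR step was tested on simulated data, and figures were drawn with matplotlib 3.10.9. Pseudogene counts entered only 1 alternative, and near-identical copies can share reads with a member. At day 2 these counts were 0.690% and 0.734% of the library total in E8 and 0.410% and 0.467% in N2B27. At day 8 they were 0.635% and 0.468% in E8 and 0.458% and 0.469% in N2B27.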

Additional observations from a re-analysis of the deposited data

Results flagged for a closer look

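In the naive libraries RPL39L stood out in replicate 1 of Ex2 at 129.8 CPM, while the lowest naive library had 81 CPM and the gap to the next library was 0.78 of the group's range. This was 1 of 76 sets looked at, the 6 naive libraries and the 4 of N2B27 at day 4 for each value, and chance alone would mark about 1 in 20.

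For 8 named members the difference of E8 from N2B27 changed between day 2 and day 8 by the interaction term of the edgeR fit, beside 9.56% of all genes called in either direction. These calls are not firm: with only the compared libraries none of the members was called, and with 1 library left out the members that moved down ran from 1 to 18 and those that moved up from 0 to 2. Values are log2 differences, E8 minus N2B27. For RPL10L the change was 2.72 (adjusted p = 0.00811), from -1.44 at day 2 to 1.28 at day 8. For RPL7L1 it was 0.51 (adjusted p = 0.0293), from -0.11 to 0.40. The other 6 members moved down. RPL22L1 changed by -0.84 (adjusted p = 0.0204), from 0.77 to -0.07, and RPS3 by -0.62 (adjusted p = 0.0449), from 0.64 to 0.02. RPS28 changed by -0.58 (adjusted p = 0.0138), from 0.31 to -0.26, and RPLP2 by -0.56 (adjusted p = 0.0271), from 0.60 to 0.04. RPL27A changed by -0.47 (adjusted p = 0.0304), from 0.51 to 0.04, and RPS27A by -0.44 (adjusted p = 0.0479), from 0.54 to 0.10. Libraries of E8 at day 2 had low totals (3143033 and 3385716), and the part of depth in these changes was not tested.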

How the results depend on the processing

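None of 47 tested values of named members with a call changed direction under the alternatives, but RPL26 at day 8 of N2B27, not called against all naive libraries, did (from -0.13 to 0.43 against serum-coated cells), and group medians did with the naive reference. Against serum-coated naive cells alone the median at day 8 was 0.04 in N2B27, from -0.16, and 0.19 in mTeSR, from -0.08. Of the 47 values, 19 kept their call in all alternatives, and of 906 such values 76 lost it, 43 of them with 1 library left out. The 2 libraries of a group shared only a number: of 171 pairs of groups, 36 had a correlation of deviations over 0.1 and 24 under -0.1. With the replicate block 55, 32, 39, 11 and 31 members were higher in E8 than N2B27 at days 2, 3, 4, 6 and 8, and no count moved past 1.5 times. In each list below, the counts of members that differ by more than 1.5 times are given, and the cause was not tested except that fewer libraries enter the fit of only the compared ones.

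DESeq2 gave 1 higher for E8 day 2 to 3, 1 for mTeSR day 8 and 1 for N2B27 day 2 against naive, 5 for mTeSR against N2B27 at day 6, 7 for N2B27 day 4 of Ex2 against Ex1, 15 for Geltrex against serum coating, and 1 lower for N2B27 day 4 to 8 and 17 for the interaction. Library totals gave 4 higher and 26 lower for E8 day 2 to 3, 18 and 22 for E8 day 2 to 8, 6 higher in E8 at day 6, 2 in mTeSR at day 8 against naive, 1 and 2 in mTeSR against N2B27 at days 6 and 8, and lower 13 in E8 at day 2 against naive, 2 and 1 in E8 against N2B27 at days 2 and 8, and 6 for the interaction. Without a filter the higher counts were 1 for E8 day 2 to 3, 14 for E8 day 2 to 8, 4 for mTeSR against N2B27 at day 8, 3 for N2B27 day 2 against naive, 4 for N2B27 day 4 of Ex2 against Ex1 and 12 for Geltrex against serum coating, and the lower ones 1 for that, 10 for E8 day 2 against naive, 2 for mTeSR and 1 for N2B27 day 4 to 8.

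With only the compared libraries, E8 against N2B27 had 31, 0, 71, 34 and 4 higher at days 2, 3, 4, 6 and 8 (2 lower at day 6), mTeSR against N2B27 7, 16 and 13 higher at days 4, 6 and 8, mTeSR against E8 0 and 0, XAV 5 and FAX 3 lower, the interaction 0 and 0, E8 day 2 to 3 0 higher and 14 lower, N2B27 day 4 to 8 44 higher, Ex2 against Ex1 45 higher in naive cells and 44 in N2B27, and Geltrex against serum coating 0. Against naive it had 5 higher in E8 at day 8, and lower 2 in E8 at day 2, 6 in mTeSR at day 8, and 3, 29 and 4 in N2B27 at days 2, 4 and 8.

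Against naive, the experiment covariate gave 24 higher in E8 and 10 in mTeSR at day 8 and 8 in N2B27 at day 2, and naive cells of Ex1 gave 35, 19 and 9, with 1 in N2B27 at day 8. Serum coating alone gave 47, 30 and 4 higher and 11 in N2B27 at day 8, with 1 lower in E8 at day 2, 6 in mTeSR, and 2, 21 and 8 in N2B27 at days 2, 4 and 8. Geltrex of Ex1 gave 4 in mTeSR, 7 in N2B27 at day 2 and 0 at day 4, and naive cells of Ex2 0 at day 4. A filter of over 10 counts, or TMM without the members, gave 1 in mTeSR and 2 in N2B27 at day 2, and RLE or added pseudogenes 2 in N2B27 at day 2.

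With each library left out in turn, the higher counts ran from 0 to 3 for E8 d2 to d3, 5 to 15 for E8 d2 to d8, 25 to 46 for E8 d2 against naive, 1 to 19 for E8 d8 against naive, 31 to 50 for E8 against N2B27 d2, 2 to 38 for E8 against N2B27 d3, 10 to 21 for E8 against N2B27 d4, 2 to 6 for E8 against N2B27 d6, 7 to 43 for E8 against N2B27 d8, 0 to 2 for the interaction, 7 to 23 for mTeSR d4 to d8, 0 to 3 for mTeSR d8 against naive, 0 to 0 for mTeSR against E8 d8, 0 to 1 for mTeSR against N2B27 d4, 0 to 1 for mTeSR against N2B27 d6, 0 to 2 for mTeSR against N2B27 d8, 0 to 6 for N2B27 d2 against naive, 0 to 0 for N2B27 d4 Ex2 against Ex1, 2 to 9 for N2B27 d4 to d8, 3 to 13 for naive Ex2 against Ex1 and 0 to 12 for Geltrex against serum coating. With each library left out in turn, the lower counts ran from 22 to 41 for E8 d2 to d3, 23 to 41 for E8 d2 to d8, 2 to 9 for E8 d2 against naive, 0 to 1 for E8 against N2B27 d3, 0 to 1 for E8 against N2B27 d8, 1 to 18 for the interaction, 0 to 1 for mTeSR d4 to d8, 3 to 15 for mTeSR d8 against naive, 0 to 28 for mTeSR against E8 d8, 0 to 1 for mTeSR against N2B27 d8, 8 to 33 for N2B27 d2 against naive, 0 to 0 for N2B27 d4 to d8, 35 to 61 for N2B27 d4 against naive, 8 to 26 for N2B27 d8 against naive and 0 to 1 for naive Ex2 against Ex1. Depth limits RPL3L and RPL10L most, and 2 libraries a group limit all counts.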
